A study of Mus musculus with 8 samples.

Results

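The collagen genes of the mouse brain were examined by the area of the section in which their transcripts lay and across treatment groups. A gene was taken as a collagen gene when its symbol was Col, a number, the letter a and a number, and when at least 30 molecules of it were counted under tissue over the 8 sections. Of 32285 genes in the files, 44 carried such a symbol and 43 reached the minimum. Col28a1, with 15 molecules, lay outside it, and Col6a6 with 52 and Col4a3 with 69 were the nearest above it. The rule used no difference between groups or areas. The 43 genes were 11 fibrillar collagens, 6 chains of type IV collagen, 2 multiplexins (Col15a1 and Col18a1), 6 chains of the beaded filament type VI, 9 fibril-associated (FACIT) collagens, 4 transmembrane collagens and 5 others.

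The study asked about the brains of mice treated with the chemotherapy drug paclitaxel (PTX) and with agents that remove senescent cells. All 8 sections came from male p16-3MR mice of 9 to 10 months according to the labels, which call the genotype wild-type. Such mice carry a fusion of a fluorescent protein and viral thymidine kinase under the promoter of p16Ink4a, so that ganciclovir (GCV) kills cells in which that promoter is active. The groups were PTX+GCV, PTX+ABT263 (an inhibitor of anti-apoptotic BCL-2 proteins), PTX and Control, with 2 sections each. PTX was given at 5 mg/kg a day for 5 days in 2 cycles set 7 days apart, GCV at 25 mg/kg or ABT263 at 1.5 mg/kg for 5 days in 2 cycles set 2 weeks apart, and controls received the vehicles. Brains were taken 6 months after PTX, and coronal sections of 10 µm were laid on arrays whose 55 µm spots capture polyadenylated RNA with molecular identifiers (UMIs). The labels do not tie the sections to single mice, so that p-values measure the spread between sections, which may be technical.

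Most collagens are secreted as triple helices, after prolyl and lysyl hydroxylation in the endoplasmic reticulum. Fibrillar collagens such as types I and III assemble into the fibers that give tensile strength to dura, pia and the adventitia of large vessels, and in the brain they are made mainly by fibroblasts. Type IV collagen forms the sheet-like network of basement membranes. In the central nervous system that network surrounds every vessel and lies under the glial border at the brain surface, and its main chains come from Col4a1 and Col4a2, made by endothelial cells and pericytes among others. Multiplexins sit in basement membranes too, FACIT collagens decorate fibrils, and transmembrane collagens are shed from cell surfaces, among them Col25a1, a neuronal collagen first found in amyloid plaques.

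The type IV genes lie in head-to-head pairs, and the stretch between the starts of Col4a1 and Col4a2 is shown because both chains enter the same trimer and their levels are set side by side in the results. The starts lie 21 bases apart at chr8:11312805-11312826 (GRCm38.p6, plus strand shown), with Col4a2 on the plus strand and Col4a1 on the minus strand. Those of Col4a3 and Col4a4 lie 72 bases apart on chromosome 1, and those of Col4a5 and Col4a6 1309 bases apart on chromosome X. The 250 bases before the start of Col3a1 (chr1:45311288-45311537, plus strand) and of Col25a1 (chr3:130180595-130180844, plus strand) are shown because these genes had their highest medians in different areas. These were the meningeal spots for Col3a1 and the thalamus for Col25a1. Capitals mark the motifs TATAAA, that is the TATA box, CCAAT and GGGCGG, searched on both strands, so that a match on the minus strand reads CCGCCC.
Col4a2 to Col4a1: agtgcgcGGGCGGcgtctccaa
Col3a1: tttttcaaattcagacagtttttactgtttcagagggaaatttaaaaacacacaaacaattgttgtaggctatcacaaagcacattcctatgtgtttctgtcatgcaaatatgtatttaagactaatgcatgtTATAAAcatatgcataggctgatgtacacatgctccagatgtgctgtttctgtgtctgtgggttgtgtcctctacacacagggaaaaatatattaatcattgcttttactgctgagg
Col25a1: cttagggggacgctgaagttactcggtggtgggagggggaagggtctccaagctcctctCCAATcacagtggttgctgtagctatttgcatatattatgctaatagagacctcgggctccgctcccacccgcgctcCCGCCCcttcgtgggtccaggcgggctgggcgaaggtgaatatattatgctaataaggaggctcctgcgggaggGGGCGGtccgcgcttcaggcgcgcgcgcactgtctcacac

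The sequences and the starts behind them are those of RefSeq for GRCm38.p6, whereas the distances between paired starts come from GENCODE. For Col25a1 GENCODE has the gene begin upstream, at position 130131501, so that the stretch shown lies inside that gene model. In 37 promoters of 34 collagen genes, TATAAA stood in 13.5% (12.4% of 32851 promoters of all genes), CCAAT in 35.1% (33.8%) and GGGCGG in 59.5% (32.7%). Col3a1 held TATAAA and neither of the other motifs in this window, whereas Col25a1 held CCAAT and GGGCGG and no TATAAA. The motifs did not follow the areas. Col1a2, also highest in meningeal spots, held CCAAT and GGGCGG and no TATAAA, as Col25a1 did. A link between motifs and areas was not tested.

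The sections labelled PTX+ABT263 went against their label in one respect. Xist, which is expressed from an inactive X chromosome, had 754 and 695 UMIs in them and 0 or 1 in each of the other 6 sections, and the Y-linked Ddx3y had 17 and 0 UMIs against 711 to 1350. Collagen calls between areas that were lost without them are therefore named in each comparison. After removal of spots of poor quality, 2346 to 2839 spots remained per section, with a median of 7583 to 15716 UMIs. Meningeal, smooth muscle and endothelial spots were the leading 3% of spots of each section by the summed UMIs of marker genes per 10000, 640 spots of each kind in all, and none of the markers was a collagen gene. The isocortex (4791 spots), fiber tracts, hippocampus, thalamus, striatum, hypothalamus and choroid plexus were clusters of gene expression named by their markers. Each spot covers several cells, and fewer cells of a type and less RNA per cell cannot be told apart.

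The marker-set spots were chosen by their markers, whose levels in them are therefore a description. Meningeal fibroblast markers stood at 14.2 to 23.8 per 10000 UMIs in meningeal spots and 0.508 to 0.638 in isocortex, smooth muscle markers at 3.10 to 5.90 in smooth muscle spots and 0.0967 to 0.211 in isocortex, and endothelial markers at 11.7 to 14.8 in endothelial spots and 2.06 to 3.25 in isocortex. Meningeal spots also held smooth muscle markers at 3.16 to 6.83, and 199 of the 640 leading smooth muscle spots were meningeal spots by the order of assignment and were replaced by the next ones. Meningeal fibroblast markers were as high in choroid plexus, at 19.1 to 24.9, whose cluster had been set apart before the meningeal spots were taken. Choroid plexus markers were at 10.4 to 33.5 in meningeal spots, 22.2 to 33.0 in fiber tracts and 2.87 to 11.9 in isocortex. Myelin markers were at 86.0 to 196 in endothelial spots, 49.3 to 106 in meningeal spots and 28.6 to 34.8 in isocortex. In meningeal spots endothelial markers were at 6.74 to 11.1 and pericyte markers at 5.20 to 9.11. Pericyte markers were at 1.97 to 3.52 in endothelial spots and 0.936 to 1.16 in isocortex. The part of these other cells in the results was not tested. At the edge of the tissue lay 320 of the 640 meningeal spots and 400 of the 4791 isocortex spots.

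Over the 8 sections 51431 collagen UMIs were counted, a level of 186 CPM, that is UMIs per 1000000 UMIs of all genes in the same spots. Fibrillar collagens held 15.8% of them, type IV 20.8%, multiplexins 3.70%, the type VI chains 9.68%, FACIT collagens 21.4%, transmembrane collagens 22.6% and the others 6.08%. One UMI stands for 1 captured transcript and is not scaled by gene length, so these are shares of counted molecules. Only 24 of the 43 genes passed the filter on low counts in the fits between areas, and the other 19, Col2a1, Col24a1, Col4a3, Col4a4 and Col4a6 among them, were not tested there.

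Between meningeal spots and isocortex, 20 of the 24 collagen genes tested were higher in meningeal spots and 1 was lower by edgeR's quasi-likelihood test with adjusted p under 0.05, where 56.6% of all 12277 genes tested differed, 26.8% higher and 29.8% lower. The median log2 fold change of the collagen genes was 1.79, against -0.05 over all genes tested. The chains of types I and III had the largest fold changes, and those of Col4a1 and Col4a2 were among the smaller ones. Of the fibrillar genes tested, 5 of 7 were higher and 1 lower. All 3 type IV genes tested were higher.

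Col1a2, a chain of type I collagen, was at 64.8, 83.4 and 132 CPM (lowest, median and highest section) in meningeal spots and 1.92, 2.37 and 3.30 in isocortex. No meningeal value lay near an isocortex value. The log2 fold change was 5.16 ± 0.17 (SE, adjusted p = 1.85e-45), a difference of 35.8-fold. Col1a1, the other chain of type I, was at 28.4, 38.4 and 69.3 CPM in meningeal spots and 0.367, 1.2 and 1.72 in isocortex (log2 fold change 5.25 ± 0.23, adjusted p = 3.25e-36). Col3a1, whose product forms fibrils with type I in distensible tissue, was at 13, 20.1 and 39.6 CPM in meningeal spots and 0, 0.271 and 0.574 in isocortex, resting on 90 and 25 UMIs (5.88 ± 0.32, 58.7-fold). Meningeal spots held 1.63% of all UMIs but 31.6% of those of Col3a1, 25.8% of those of Col1a1 and 25.1% of those of Col1a2.

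Other fibrillar chains did not share that gap. Col5a2, part of the type V collagen that sets fibril width, was at 2.70, 8.23 and 13.2 CPM in meningeal spots and 0.0916, 0.400 and 1.47 in isocortex (log2 fold change 3.84 ± 0.43, adjusted p = 4.59e-13). Col11a2, a chain of the type XI collagen of cartilage fibrils, was higher by 1.54 ± 0.27. Col5a1, the main type V chain, was at 1.80, 7.52 and 23.1 CPM in meningeal spots and 2.73, 6.88 and 10.8 in isocortex, and its log2 fold change of 0.48 ± 0.29 did not pass (adjusted p = 0.153). Col11a1 was lower in meningeal spots (0, 1.69 and 10.6 CPM, against 3.46, 5.33 and 9.05 in isocortex, log2 fold change -0.93 ± 0.41, adjusted p = 0.0482). That call was lost in 12 of 16 alternatives, 7 of them the removal of 1 section, with adjusted p of 0.0587 to 0.177 then and 0.133 without the sections labelled PTX+ABT263. Col24a1, a fibrillar collagen known from bone and cornea, was not tested. It was at 2.00, 3.17 and 5.11 CPM in isocortex and at 0 in 6 of the 8 sections in meningeal spots.

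**Figure D1:**
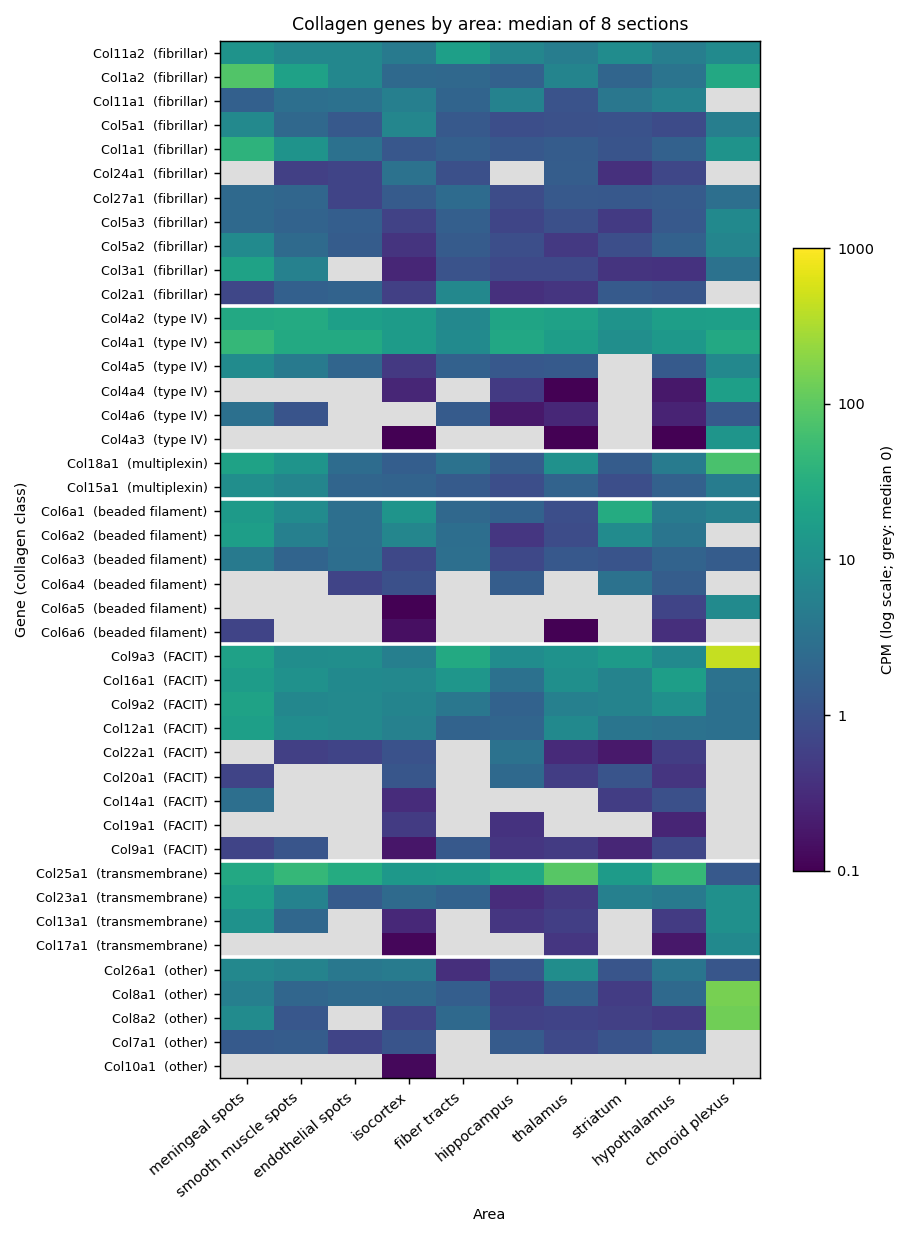
Median level over the 8 sections of each of the 43 collagen genes (rows, grouped by class) in 10 areas (columns), in CPM on a log colour scale, with grey for a median of 0. Col1a2, Col1a1 and Col3a1 are brightest in meningeal spots (83.4, 38.4 and 20.1), while Col4a1 and Col4a2 are at 16.0 and 15.9 in isocortex and present in every column.

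Col4a1 and Col4a2 were counted in every area, and their fold changes in meningeal spots were smaller than those of type I. Col4a1 was at 15.8, 46.5 and 71.4 CPM in meningeal spots and 10.7, 16.0 and 21.3 in isocortex (log2 fold change 1.51 ± 0.15, adjusted p = 7.53e-15). The ranges overlapped, and 7 of 8 sections were higher in meningeal spots. Col4a2 was at 22.1, 26.1 and 44.9 CPM in meningeal spots and 11.7, 15.9 and 21.8 in isocortex, higher in 8 of 8 sections (0.95 ± 0.14, adjusted p = 6.29e-09). Col4a5, a chain of the basement membranes of kidney and smooth muscle, was at 2.70, 8.55 and 22.5 CPM in meningeal spots and 0.147, 0.457 and 1.06 in isocortex (4.16 ± 0.36). Its neighbour Col4a6 was not tested and had 17 UMIs in meningeal spots and 9 in isocortex, with the higher level in meningeal spots in 8 of 8 sections.

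The paired genes Col4a1 and Col4a2 gave close counts over the whole section, with 1.03 UMIs of Col4a2 for each of Col4a1 and 0.962 to 1.16 in single sections. The ratio was 0.990 in isocortex, 0.679 in meningeal spots, 0.643 in choroid plexus and 1.24 in hypothalamus. In meningeal spots it ranged over 0.440 to 1.50 by section on 196 UMIs of Col4a1, and these ratios were not tested.

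Of the remaining classes, Col18a1, which carries endostatin at its end, was at 9.71, 20.4 and 27.1 CPM in meningeal spots and 0.403, 1.54 and 1.83 in isocortex (log2 fold change 3.87 ± 0.32). Its fellow multiplexin Col15a1 was higher by 2.36 ± 0.32. Col13a1, a transmembrane collagen of cell-matrix junctions, was at 1.98, 10.8 and 16.5 CPM in meningeal spots and 0, 0.290 and 0.806 in isocortex (5.14 ± 0.35, adjusted p = 1.02e-23), and 22.2% of its UMIs lay in meningeal spots. Further genes higher in meningeal spots were the transmembrane Col23a1 (2.75) and Col25a1 (0.94), the type VI chain Col6a2 (1.76), the FACIT genes Col9a2 (2.01), Col12a1 (1.81), Col9a3 (1.69) and Col16a1 (1.19), and the type VIII chains Col8a2 (3.72) and Col8a1 (1.30). Col6a1 (0.47, adjusted p = 0.0691) and Col26a1 (0.52, adjusted p = 0.171) did not pass. Without the filter on low counts 27 of the 43 genes were higher and 2 lower, where 33.3% of all 23250 genes differed. Without the sections labelled PTX+ABT263 21 of 23 tested were higher and 0 lower.

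**Figure D2:**
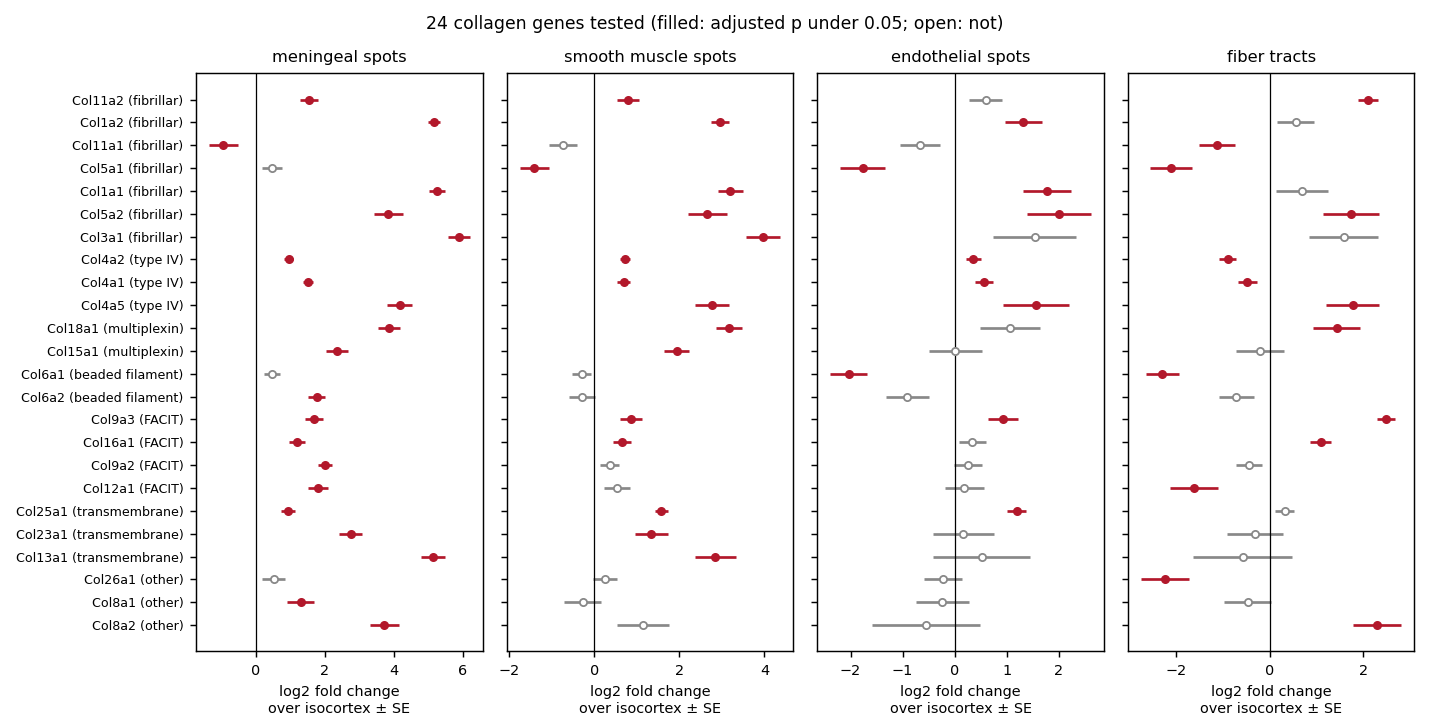
Log2 fold change (± SE) of the 24 collagen genes tested in meningeal, smooth muscle and endothelial spots and in fiber tracts, each against isocortex, from the edgeR fit over 8 sections; filled points passed at adjusted p under 0.05. Types I and III lead in meningeal spots with log2 fold changes over 5, and the sign of Col4a1 and Col4a2 is positive in the 3 marker-set areas and negative in fiber tracts.

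Smooth muscle spots, which mark arteries and arterioles, held the same fibrillar genes at lower levels. In them 15 of 24 collagen genes were higher than in isocortex and 1 was lower (44.3% of all genes tested differed, 20.6% higher and 23.6% lower), with a median log2 fold change of 0.83 against -0.04 over all genes. Col1a2 was at 13.5, 19.8 and 27.6 CPM in smooth muscle spots (log2 fold change against isocortex 2.96 ± 0.22), Col1a1 at 2.27, 11.3 and 17.0 (3.20 ± 0.29) and Col3a1 at 3.93, 5.76 and 9.02 (3.97 ± 0.40). Each of the 3 was higher than in isocortex in 8 of 8 sections. Meningeal fibroblast markers were at 1.35 to 2.72 per 10000 UMIs in smooth muscle spots and 0.508 to 0.638 in isocortex. Of the 640 smooth muscle spots 104 lay at the tissue edge, and the part of fibroblasts in these values was not tested. Col4a1 was at 22.3, 26.7 and 34.0 CPM (0.68 ± 0.15) and Col4a2 at 21, 28.0 and 33.9 (0.73 ± 0.12, adjusted p = 3.21e-07). Both type IV genes were again higher in 8 of 8 sections. Col18a1 (3.17 ± 0.31) and Col25a1 (1.57 ± 0.15) passed too, while Col5a1 was lower by 1.42 on the log2 scale (SE 0.34).

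Set directly against each other, 16 of 24 collagen genes were higher in meningeal than in smooth muscle spots and 1 was lower (23.5% of all genes differed, 12.7% higher and 10.8% lower). The median log2 fold change was 1.23, against -0.01 over all genes. Col1a2 was higher by 2.20 ± 0.18, Col1a1 by 2.05 ± 0.23, Col3a1 by 1.90 ± 0.30 and Col4a1 by 0.82 ± 0.18. Col4a2 did not pass (0.23 ± 0.16, adjusted p = 0.336), and Col25a1 was lower in meningeal spots (-0.64 ± 0.21, adjusted p = 0.0156). Without the sections labelled PTX+ABT263, 12 of 23 tested genes were higher and 0 lower. The genes that lost their calls then were Col25a1 (adjusted p = 0.116), Col5a2 (0.0987), Col9a3 (0.114), Col6a1 (0.0751) and Col8a1 (0.0805). The call of Col25a1 was also lost without section 2 of them alone (adjusted p = 0.0525), and each of the other 4 without section 2 of Control too (adjusted p = 0.0594 to 0.106).

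Endothelial spots had the smallest excess of the 3 marker-set areas. Against isocortex 8 of 24 collagen genes were higher and 2 lower (48.0% of all genes tested differed, 22.2% higher and 25.8% lower), with a median log2 fold change of 0.35 against -0.06 over all genes. Col4a1 was at 12.5, 26.7 and 34.1 CPM in endothelial spots and 10.7, 16.0 and 21.3 in isocortex (0.57 ± 0.18, adjusted p = 0.005), higher in 6 of 8 sections. Col4a2 was at 14.4, 17.9 and 28.8 CPM in endothelial spots and 11.7, 15.9 and 21.8 in isocortex (0.36 ± 0.15, adjusted p = 0.0495), higher in 5 of 8 sections. This call was lost in 10 of 18 alternatives, among them the removal of section 1 of Control (adjusted p = 0.0578) or of section 1 or 2 labelled PTX+ABT263 (0.187 and 0.175), and without both sections labelled PTX+ABT263 the adjusted p was 0.563.

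Col4a5 (1.56 ± 0.63), Col1a1 (1.77 ± 0.46), Col1a2 (1.32 ± 0.36), Col5a2 (2.00 ± 0.62), Col9a3 (0.92 ± 0.29) and Col25a1 (1.19 ± 0.18) were the other genes higher in endothelial spots. Col3a1 did not pass (1.53 ± 0.79, adjusted p = 0.103) and was at 0 in 5 of 8 sections there. Col6a1 (-2.03 ± 0.36) and Col5a1 (-1.76 ± 0.43) were lower, in 8 of 8 sections each. Without the sections labelled PTX+ABT263 only 6 genes passed, 4 higher and 2 lower, since Col4a2, Col4a5, Col5a2 and Col9a3 were lost. Without section 1 of them Col5a2 and Col9a3 had adjusted p of 0.0619 and 0.0562, and Col4a5 lost its call without any 1 of 5 sections, with adjusted p of 0.054 to 0.113.

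Few of the marker-set spots lay inside the isocortex clusters, 12 meningeal, 75 smooth muscle and 62 endothelial spots. With those alone, 3 collagen genes were higher in meningeal spots, 4 in smooth muscle spots and 0 in endothelial spots than in isocortex. The share of all genes that passed with so few spots is not given, so these counts cannot be read as particular to collagen genes. The difference of Col25a1 changed sign in smooth muscle spots (-0.75, adjusted p = 0.417) and in endothelial spots (-0.66, adjusted p = 0.566). Col1a2 (2.93) and Col1a1 (3.33) in smooth muscle spots nearly kept the size of their log2 fold changes on these few spots. Col4a1 did so in endothelial spots (0.55, adjusted p = 0.484), where that of Col4a2 was larger (0.99, adjusted p = 0.0502). Those of Col5a1 (-0.04) and Col6a1 (-0.79) shrank in endothelial spots, and neither passed. In smooth muscle spots Col13a1 (-2.87), Col11a2 (-0.63) and Col9a3 (-0.07) changed sign too, and Col23a1 fell to 0.36. Col25a1 was at 60.1, 90.1 and 124 CPM in thalamus, 27.0, 47.5 and 61.4 in hypothalamus and 11.7, 13.7 and 17.0 in isocortex, and its values in smooth muscle spots were 22.2, 46.5 and 52.0.

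Fiber tracts differed from isocortex in both directions. Of 24 collagen genes 7 were higher and 7 lower, where 68.6% of all genes differed (33.6% higher and 35.0% lower), and the median log2 fold change was -0.26 against -0.01 over all genes. Col4a2 was at 3.36, 7.34 and 14.2 CPM in fiber tracts and 11.7, 15.9 and 21.8 in isocortex (-0.89 ± 0.18, adjusted p = 1.14e-05), lower in 8 of 8 sections. Col4a1 was lower by 0.47 on the log2 scale (SE 0.21, adjusted p = 0.035), a call lost without any 1 of 5 sections (both of Control, both of PTX and section 2 labelled PTX+ABT263), with adjusted p of 0.0754 to 0.225. Col6a1 (-2.29 ± 0.36), Col26a1 (-2.23 ± 0.52), Col5a1 (-2.11 ± 0.44), Col12a1 (-1.61 ± 0.51) and Col11a1 (-1.12 ± 0.39) were lower as well.

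The genes higher in fiber tracts were collagens known from cartilage and others. Col9a3, a FACIT chain of type IX collagen, was at 19.6, 26.7 and 40.2 CPM in fiber tracts and 4.03, 5.24 and 8.10 in isocortex (2.48 ± 0.19, adjusted p = 8.03e-21). Col11a2 was at 11.5, 18.1 and 28.5 CPM in fiber tracts and 2.73, 4.24 and 7.20 in isocortex (2.10 ± 0.21, adjusted p = 6.05e-15). For neither gene did the ranges overlap. Col16a1 (1.08), Col8a2 (2.30), Col4a5 (1.77), Col5a2 (1.74) and Col18a1 (1.43) passed too. Choroid plexus markers were at 22.2 to 33.0 per 10000 UMIs in fiber tracts and 2.87 to 11.9 in isocortex. Col9a3, Col8a2 and Col18a1 were highest in choroid plexus, with medians of 442, 134 and 70.6 CPM. The part of choroid plexus in the fiber tract values was not tested. The calls of Col4a5 and Col5a2 were lost without the sections labelled PTX+ABT263 (adjusted p = 0.261 and 0.0573), and each without 1 section, Col4a5 without section 2 labelled PTX+ABT263 (0.0822) and Col5a2 without section 1 of PTX (0.0906). Col12a1 was lost without both sections labelled PTX+ABT263 (0.0634). Col2a1, the main collagen of cartilage, was not tested. It was at 4.54, 7.40 and 14.3 CPM in fiber tracts and 0.269, 0.569 and 1.01 in isocortex, higher in 8 of 8 sections on 54 and 43 UMIs.

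The balance of the 2 kinds of collagen was expressed as the fibrillar share, the UMIs of the 11 fibrillar genes as a percent of those of fibrillar and type IV genes. It was 57.3%, 67.0% and 79.9% (lowest, median and highest section) in meningeal spots, 42.5%, 51.1% and 57.4% in smooth muscle spots, 29.4%, 40.7% and 48.8% in endothelial spots and 41.0%, 44.9% and 48.2% in isocortex. Meningeal spots lay above isocortex in 8 of 8 sections with no overlap, and smooth muscle and endothelial spots overlapped isocortex. Fiber tracts, at 51.5%, 66.5% and 83.7%, overlapped meningeal spots. Hippocampus had a median of 29.2%, thalamus 33.9%, hypothalamus 44.5% and striatum 50.2%. Type IV genes together were at 40.4 to 69.9 CPM by section in hippocampus and 31.2 to 62.9 in endothelial spots. Endothelial markers were at 1.53 to 2.73 per 10000 UMIs in hippocampus and 11.7 to 14.8 in endothelial spots. The type IV level of endothelial spots was thus not particular to spots rich in endothelial markers. Hippocampus was not tested against other areas.

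The like shares of meningeal spots and fiber tracts were made of different genes. Counting only Col1a1, Col1a2 and Col3a1 as fibrillar, the median share was 61.3% in meningeal spots, 39.2% in smooth muscle spots, 18.3% in endothelial spots, 10.4% in isocortex and 22.7% in fiber tracts. These 3 genes gave 641 of 810 fibrillar UMIs in meningeal spots, 37 of 279 in fiber tracts and 298 of 2123 in isocortex. In isocortex Col5a1 (518 UMIs), Col11a1 (443), Col11a2 (373) and Col24a1 (258) made up most of the remainder.

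**Figure D3:**
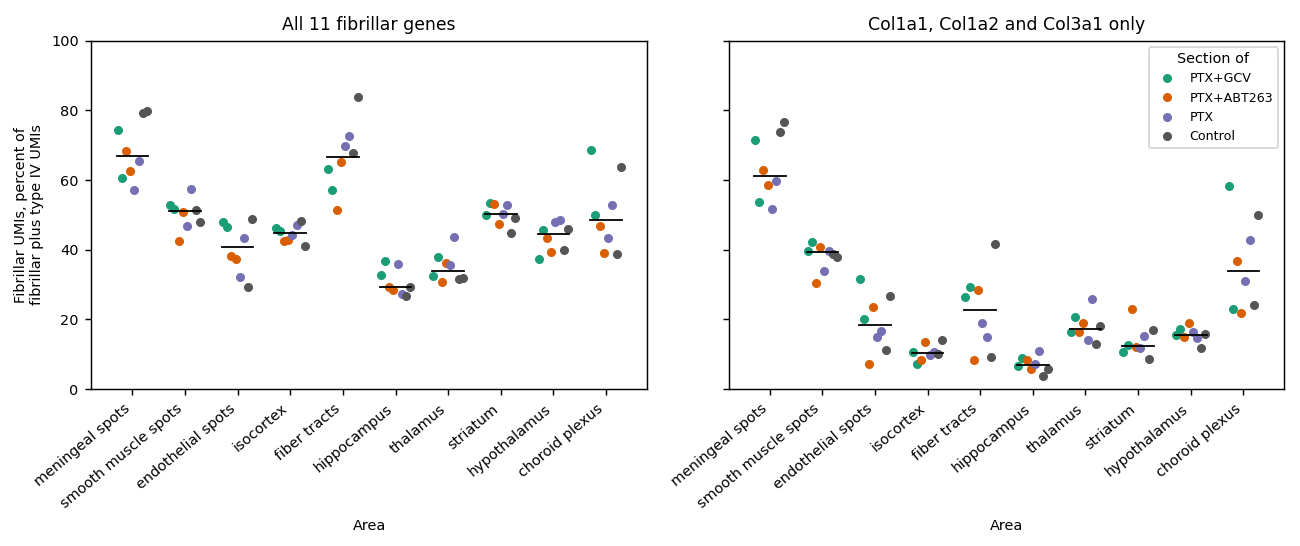
Fibrillar share in percent by area, with 1 point per section coloured by group and a bar at the median, once with all 11 fibrillar genes and once with Col1a1, Col1a2 and Col3a1 alone. Meningeal spots have medians of 67.0% and 61.3%, and isocortex falls to 10.4% when the 3 genes alone are counted.

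Distance from the tissue edge gave the same order without the use of any marker gene. Rings of spots were counted inwards from the edge, over all areas. Col1a1, Col1a2 and Col3a1 together were at 18.1, 29.1 and 40.1 CPM in the 2420 edge spots and at 6.37, 8.63 and 10.6 in the next ring. In rings 4 and deeper they were at 5.27, 6.80 and 7.92. Edge spots were above the next ring in every section, and from that ring inwards the ranges overlapped. Type IV genes were at 36.5, 48.2 and 55.9 CPM in edge spots, 26.6, 43.4 and 53.9 in the next ring and 30.8, 33.5 and 44.9 in rings 4 and deeper, with overlap between all of these. Within each section the edge was above the next ring for both sets, by 2.46 to 5.66 times for the type I and III genes and by 1.04 to 1.37 times for type IV.

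**Figure D4:**
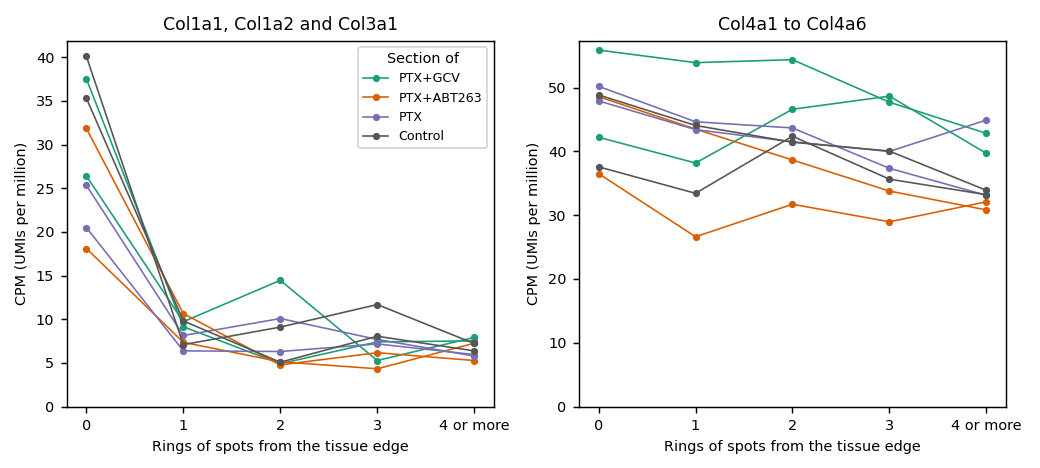
CPM of Col1a1, Col1a2 and Col3a1 together and of the type IV genes together, by ring of spots from the tissue edge (0) inwards, with 1 line for each of the 8 sections, coloured by group. The type I and III genes drop after the edge ring, whose lowest section is at 18.1 CPM and above the highest value of the next ring, 10.6.

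Genes that modify, process and bind collagens were followed from lists of their own. Between meningeal spots and isocortex, where 26.8% of all genes tested were higher and 29.8% lower, 11 of 15 tested genes of modification and folding were higher and 1 lower. Among those higher were Serpinh1 (log2 fold change 3.24), the collagen chaperone HSP47, Crtap (2.44), part of the prolyl 3-hydroxylation complex, Plod1 (1.55), a lysyl hydroxylase, and P4hb (0.90), a subunit of prolyl 4-hydroxylase. Of processing and crosslinking genes 6 of 7 were higher and 0 lower, with Pcolce (5.44), which enhances cleavage of procollagen C-propeptides, Loxl1 (3.63), an amine oxidase of the lysyl oxidase family, Adamts2 (2.49), the procollagen N-proteinase, and Sparc (1.99), a collagen-binding matrix protein. Several of these genes were as high or higher elsewhere. In fiber tracts the log2 fold change against isocortex was 2.75 for Plod1 and 1.12 for P4hb, and that of Sparc was 2.16 in smooth muscle spots, 2.19 in endothelial spots and 2.04 in fiber tracts.

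Of other basement membrane genes 11 of 12 were higher in meningeal spots, led by the laminin chains Lamb2 (3.12), Lama1 (4.64) and Lamc3 (4.46) and by nidogen 1, Nid1 (4.18). All 7 receptors tested were higher, among them Mrc2 (4.33), the endocytic collagen receptor, Ddr2 (3.63), a receptor kinase for fibrillar collagens, Adgrg1 (1.62), which binds type III collagen, and Itgb1 (1.57), the integrin beta chain of collagen receptors. Of proteases and inhibitors 5 of 6 were higher and 0 lower, among them the metalloproteinase inhibitors Timp3 (2.50) and Reck (2.10) and the gelatinase Mmp2 (2.85). In endothelial spots 8 of 12 other basement membrane genes were higher than in isocortex (22.2% of all genes were), with Lamb2 at 1.42, Lama5 at 1.29, Nid1 at 2.03 and Lama2 at 1.23.

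The effect of treatment was followed over the whole section, in isocortex and in meningeal spots. Over the whole section 42 of 43 collagen genes were tested and 0 passed in any of the 3 comparisons by edgeR's quasi-likelihood test. The share of all 16671 genes that passed was 0.126% for PTX against Control, 0.024% for PTX+GCV against PTX and 0.138% for the sections labelled PTX+ABT263 against PTX. At an unadjusted p under 0.05 the collagen genes numbered 8, 7 and 11, and DESeq2 called 0, 0 and 1. Here and below, counts at an unadjusted p stand without the share of all genes at that threshold. Such counts therefore cannot be read as an excess of collagen genes. The median log2 fold change of the collagen genes was 0.23, -0.08 and -0.29, against 0.01, 0.00 and 0.00 over all genes tested. Both senolytic groups are set against the same 2 PTX sections. Where 2 sections are said not to overlap 2 others, here and below, an exact permutation test can give no p below 0.333. The share of all genes without overlap is not given. Lack of overlap in single genes is therefore a description and no support for a difference.

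The collagen total was 195 and 226 CPM with PTX+GCV, 174 and 144 in sections labelled PTX+ABT263, 210 and 193 with PTX and 175 and 166 in Control. The fibrillar genes together were at 28.5 and 36.4 CPM with PTX+GCV, 23.1 and 21.6 in sections labelled PTX+ABT263, 34.2 and 34.0 with PTX, and 31.0 and 24.6 in Control. Type IV genes were at 41.6 and 46.8 CPM with PTX+GCV, 34.1 and 31.2 in sections labelled PTX+ABT263, 44.0 and 38.6 with PTX, and 37.2 and 35.0 in Control. In the sums of fibrillar and of type IV genes the sections labelled PTX+ABT263 were lowest and did not overlap the others. The fibrillar share was 40.7% and 43.7% with PTX+GCV, 40.3% and 40.9% in sections labelled PTX+ABT263, 43.7% and 46.8% with PTX and 45.4% and 41.3% in Control, and no group stood apart from all others.

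Col5a3, a minor type V chain, was at 1.48 and 1.35 CPM with PTX+GCV, 1.36 and 0.970 in sections labelled PTX+ABT263, 1.47 and 1.63 with PTX and 0.705 and 0.663 in Control. It had the smallest p of the collagen genes for PTX against Control (log2 fold change 1.12 ± 0.28, adjusted p = 0.135) and did not pass. The PTX and Control sections did not overlap. Col9a2 (0.41 ± 0.12, adjusted p = 0.179) and Col7a1, the anchoring fibril collagen (1.01 ± 0.30, adjusted p = 0.188), came next. On the negative side stood Col15a1 (-0.42), Col23a1 (-0.35) and Col1a1 (-0.33), with adjusted p of 0.371 to 0.546. Without the filter on low counts 4 collagen genes passed, Col11a1, Col5a3, Col6a1 and Col7a1, each higher with PTX. In that setting 3.7% of all 23630 genes passed.

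For PTX+GCV against PTX, Col9a2 was at 5.78 and 6.85 CPM with PTX+GCV and 8.07 and 8.45 with PTX (log2 fold change -0.42 ± 0.12, adjusted p = 0.231). Col8a1 was at 2.25 and 2.41 CPM with PTX+GCV and 3.85 and 3.10 with PTX (-0.61 ± 0.21, adjusted p = 0.337). The values of neither gene overlapped, and neither passed. Choroid plexus markers, where Col8a1 lay to 42.7%, were at 14.1 and 13.1 per 10000 UMIs with PTX+GCV and 24.3 and 32.9 with PTX, and their part in these differences was not tested gene by gene. Without meningeal and choroid plexus spots 0 of 40 collagen genes tested passed as well. Col9a3 (-0.41), Col25a1 (0.21), Col6a2 (0.32) and Col18a1 (0.45) were the others with the smallest p, at adjusted p of 0.338 to 0.452.

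In the sections labelled PTX+ABT263, Col5a1 was at 1.67 and 1.61 CPM, against 4.85 and 3.12 with PTX (log2 fold change -1.17 ± 0.22, adjusted p = 0.0739). Col6a2, an alpha chain of type VI collagen, was at 3.34 and 2.63 CPM in them and 5.22 and 5.20 with PTX (-0.69 ± 0.14, adjusted p = 0.104). Neither gene overlapped between the groups. The fold change was below 0 for all 11 fibrillar genes and for 4 of 6 type IV genes, and none of these passed. It was also below 0 for 4 of 4 transmembrane, 7 of 9 FACIT, 4 of 5 tested type VI and 3 of 5 other genes. Of the multiplexins 0 of 2 were below 0. The share of all genes below 0 is not given, so these counts cannot be read as particular to collagen genes. Over all genes tested the median log2 fold change was 0.00. Since all genes are read from the same sections, their directions are not independent of each other. Smooth muscle markers were at 0.278 and 0.313 per 10000 UMIs in the sections labelled PTX+ABT263 and 0.484 and 0.395 with PTX, and endothelial markers at 3.00 and 2.85 and at 3.31 and 3.42, whose part was not tested. Col7a1 came next by p (-1.10 ± 0.29, adjusted p = 0.168), and above 0 the smallest p values were those of Col8a2 (0.61), Col8a1 (0.34) and Col15a1 (0.13), at adjusted p of 0.466 to 0.83.

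In isocortex 26 of 43 collagen genes were tested. For PTX against Control 0 passed (0.371% of all 14290 genes did) and 2 had an unadjusted p under 0.05, and for PTX+GCV against PTX 0 passed (0.021% of all genes) and 1 had an unadjusted p under 0.05. DESeq2 called 0 in both. The sections labelled PTX+ABT263 against PTX gave 1 (0.182% of all genes), with 6 at an unadjusted p under 0.05. The median log2 fold changes were 0.10, -0.03 and -0.27, against 0.00 over all genes in each case.

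The gene that passed was Col6a2. It was at 8.38 and 8.60 CPM with PTX+GCV, 3.12 and 2.37 in sections labelled PTX+ABT263, 6.95 and 6.54 with PTX and 6.65 and 7.17 in Control. The sections labelled PTX+ABT263 stood below the other 6. Against PTX the log2 fold change was -1.17 ± 0.22 (adjusted p = 0.0289). With DESeq2 the adjusted p was 0.0997. It was 0.247 without section 1 of PTX, 0.0576 without section 2 of PTX, 0.0764 without section 1 labelled PTX+ABT263 and 0.524 without section 2 labelled PTX+ABT263. The call thus rested on each of the 4 sections, while the log2 fold change stayed between -1.33 and -1.03 over all 14 alternatives run. These sections differ from the rest in their sex-linked genes too, and group and that difference cannot be told apart.

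Col5a1 in isocortex was at 7.79 and 9.05 CPM with PTX+GCV, 3.39 and 2.73 in sections labelled PTX+ABT263, 10.8 and 5.97 with PTX and 8.26 and 5.74 in Control (against PTX -1.33 ± 0.27, adjusted p = 0.0571). Col4a1 was at 15.1 and 21.3 CPM with PTX+GCV, 12.5 and 10.7 in sections labelled PTX+ABT263, 20.5 and 17.5 with PTX and 14.3 and 16.8 in Control (against PTX -0.59 ± 0.16, adjusted p = 0.156). Both genes were lowest in the sections labelled PTX+ABT263 without overlap. For PTX against Control, Col11a2 (0.83 ± 0.32, adjusted p = 0.297), Col9a3 (0.60), Col6a1 (0.43), Col15a1 (-0.71), Col23a1 (-0.60) and Col6a4 (-0.59) had the smallest p values each way, and for PTX+GCV against PTX Col4a5 had the smallest (-1.88 ± 0.60, adjusted p = 0.569), before Col9a3 (-0.48) and Col8a1 (-0.57) below 0 and Col6a2 (0.28), Col25a1 (0.21) and Col6a4 (0.66) above it. In the sections labelled PTX+ABT263 the genes above 0 with the smallest p were Col12a1 (0.44), Col15a1 (0.42) and Col23a1 (0.18), none of which passed.

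**Figure D5:**
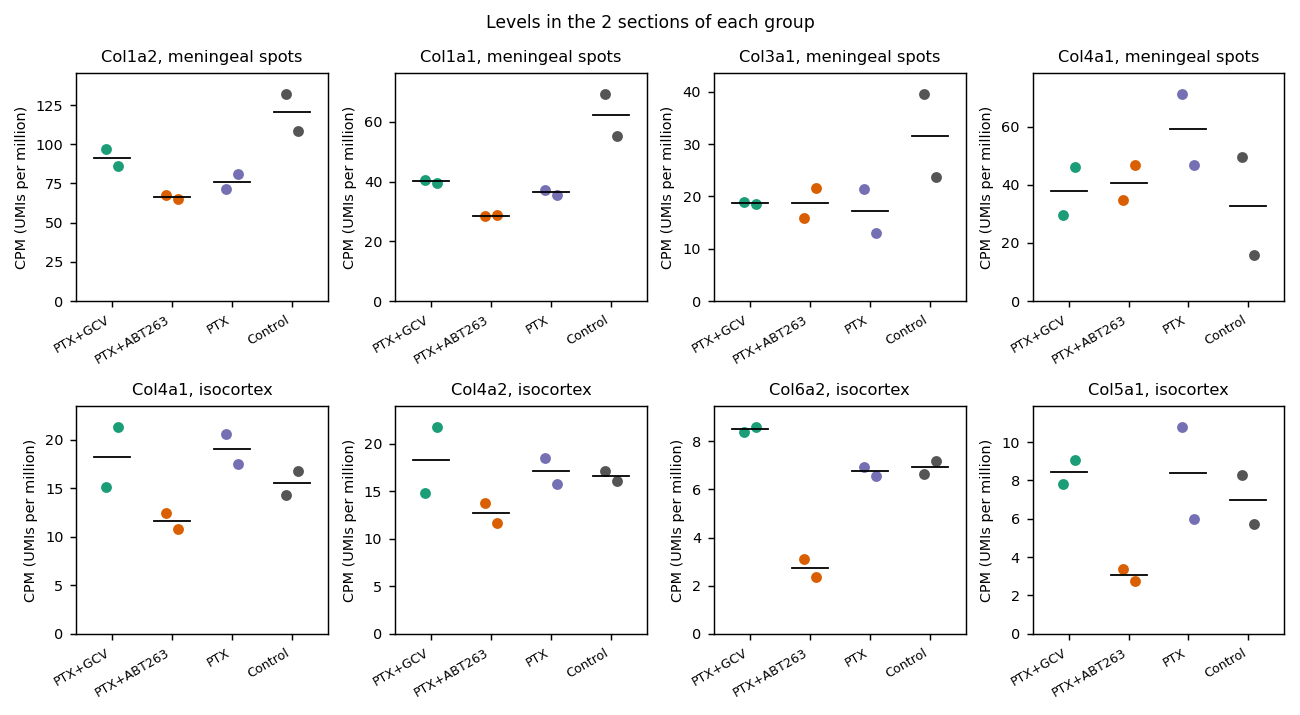
CPM in the 2 sections of each group (points) with their mean (bar), for Col1a2, Col1a1, Col3a1 and Col4a1 in meningeal spots and Col4a1, Col4a2, Col6a2 and Col5a1 in isocortex. Col6a2 is at 3.12 and 2.37 in sections labelled PTX+ABT263 and at 6.54 or more in the other 6, and Col1a2 is highest in Control, at 132 and 109.

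In meningeal spots 15 of 43 collagen genes were tested and 0 passed in any comparison, where 0.0336% of all 8935 genes passed for PTX against Control, 0.0783% for PTX+GCV against PTX and 0.145% for the sections labelled PTX+ABT263 against PTX. At an unadjusted p under 0.05 there were 4, 0 and 0, and DESeq2 called 0 in each. The median log2 fold changes were -0.13, 0.11 and -0.09, against 0.00 over all genes.

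Col1a2 in meningeal spots was at 97.1 and 85.8 CPM with PTX+GCV, 67.9 and 64.8 in sections labelled PTX+ABT263, 71.4 and 80.9 with PTX and 132 and 109 in Control. Control lay above every other section. Against Control the log2 fold change with PTX was -0.70 ± 0.23 (adjusted p = 0.956). Col1a1 was at 40.4 and 39.6 CPM with PTX+GCV, 28.4 and 28.8 in sections labelled PTX+ABT263, 37.1 and 35.6 with PTX and 69.3 and 55.3 in Control (PTX against Control -0.80 ± 0.31), again highest in Control. Col3a1 was at 18.9 and 18.5 CPM with PTX+GCV, 15.8 and 21.6 in sections labelled PTX+ABT263, 21.4 and 13 with PTX and 39.6 and 23.7 in Control (-0.84 ± 0.45). All 3 differences missed the threshold. Meningeal fibroblast markers in these spots were at 17.7 and 14.2 per 10000 UMIs with PTX+GCV, 15.1 and 14.8 in sections labelled PTX+ABT263, 17.7 and 16.9 with PTX and 23.8 and 14.3 in Control, and their part in the values was not tested.

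Among type IV genes in the same spots, 2 of the 3 tested were above 0 and 1 below for PTX against Control, and 0 passed. Col4a1 was at 29.7 and 46.2 CPM with PTX+GCV, 34.7 and 46.8 in sections labelled PTX+ABT263, 71.4 and 46.9 with PTX and 49.5 and 15.8 in Control (PTX against Control 0.97 ± 0.40, adjusted p = 0.956), with overlap of PTX and Control. Col9a2 was at 18.9 and 27.7 CPM with PTX+GCV, 20.5 and 19.8 in sections labelled PTX+ABT263, 32.8 and 35.6 with PTX and 6.60 and 17.8 in Control (1.26 ± 0.46, adjusted p = 0.956). For PTX+GCV against PTX the smallest p values belonged to Col4a1 (-0.67), Col12a1 (-0.79) and Col9a2 (-0.57) below 0 and to Col25a1 (0.41), Col1a2 (0.16) and Col23a1 (0.37) above it. For the sections labelled PTX+ABT263 against PTX they belonged to Col9a2 (-0.65), Col6a1 (-0.85) and Col4a1 (-0.45) below 0 and to Col9a3 (0.26), Col6a2 (0.25) and Col3a1 (0.20) above it. The fibrillar share in meningeal spots was 74.4% and 60.7% with PTX+GCV, 68.4% and 62.5% in sections labelled PTX+ABT263, 57.3% and 65.6% with PTX and 79.4% and 79.9% in Control. Control exceeded all other sections, the groups of treated mice overlapped, and an exact permutation test of 2 against 2 sections can give no p below 0.333.

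Whether an effect of treatment differed between meningeal spots and isocortex was tested as a difference of the 2 effects. Of 18 collagen genes tested 0 passed in any of the 3 comparisons by edgeR's quasi-likelihood test, with 2 (PTX against Control), 1 (PTX+GCV against PTX) and 1 (the sections labelled PTX+ABT263 against PTX) at an unadjusted p under 0.05. Of all 11893 genes tested, 1, 1 and 3 passed in the same order. The absence of calls is therefore not particular to collagen genes. No gene of the lists for modification, processing, basement membrane, receptors and proteases passed in a comparison between groups in any of the 3 areas.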

How the data were processed

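Spatial gene expression was measured on 8 coronal brain sections, 2 of each group, placed by their labels. The deposited values are raw UMI counts per gene and spot, for which the authors used Space Ranger 1.2.1, named in the file headers, and the mm10 genome. The submitters' processing notes also name Seurat 4.0. Whether reads were counted by strand is not given in the sources used here, so Col4a1, Col9a3, Col10a1, Col18a1 and Col4a3, whose ends overlap a gene on the other strand, are less certain. Images were not used here.

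Spots were kept with at least 200 detected genes and at most 30% mitochondrial UMIs. Clusters came from Seurat 5.3.0 (SCTransform, 2000 features, 20 principal components, resolution 0.15), made without collagen, meningeal, smooth muscle and endothelial marker genes. Marker-set spots needed at least 1000 UMIs and were taken after the choroid plexus cluster, in the order meningeal, smooth muscle, endothelial. UMIs were summed per section and area and tested with edgeR 4.0.16 (TMM, filterByExpr, quasi-likelihood F-test, Benjamini-Hochberg over all genes tested). Between areas the section was a block, and between groups all 4 groups entered 1 fit. SEs were obtained by dividing the log2 fold change by the root of F. CPM are UMIs per 1000000 of all UMIs of that section and area. DESeq2 1.42.0 was an alternative, with total counts, no filter, other areas, and each section left out, which assumes that the section remaining alone varied as those of other groups did. The fits were tested on simulated data. Python 3.11.15 and R 4.3.3 were used. The 2 sections of a group correlated at 0.9899 to 0.9943 over genes and were counted apart.

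All fibrillar and type IV genes were to be described, and of other classes those that passed or had most UMIs, with the 3 smallest p values each way in comparisons between groups and up to 4 genes of each list. The collagen genes and lists were chosen with earlier results of these data known.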

Additional observations from a re-analysis of the deposited data

How the results depend on the processing

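The sections of a group carry numbers, but same-numbered sections did not deviate together (correlations of -0.1147 to 0.0662), so that numbers do not pair sections. With the replicate block 2 collagen genes passed in isocortex between the sections labelled PTX+ABT263 and PTX, and the other counts between groups kept within 1.5 times.

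Without the filter on low counts the whole section gave 4 collagen genes for PTX against Control, where 3.7% of all 23630 genes passed. PTX+GCV against PTX gave 2 (2.31% of all genes) and the sections labelled PTX+ABT263 against PTX gave 7 (3.01%). This last comparison gave 2 with total counts, 1 with DESeq2 and 0 to 1 when single sections were left out. In isocortex it gave 3 with total counts, 4 without the filter, 0 with DESeq2, 3 with only the 2 groups in the fit and 0 to 2 when single sections were left out. Of all 21067 genes tested in isocortex without the filter, 1.47% passed in that comparison. Fiber tracts against isocortex gave 22 without the filter (40.7% of all 23250 genes), and endothelial spots 6 without the sections labelled PTX+ABT263. With spots inside the isocortex clusters alone the counts were 3 in meningeal, 4 in smooth muscle and 0 in endothelial spots, and 0 between meningeal and smooth muscle spots; there the log2 fold change against isocortex reversed in smooth muscle spots for Col9a3 (-0.0727), Col25a1 (-0.75), Col13a1 (-2.87) and Col11a2 (-0.63) and in endothelial spots for Col25a1 (-0.66), none of which passed. Single meningeal genes are not given for that setting, which left 12 meningeal spots. Its counts stand without the share of all genes that passed. Adding multiplexins to type IV lowered the fibrillar share to 42.1% in smooth muscle spots, 27.8% in thalamus, 46.8% in striatum, 38.1% in hypothalamus and 34.5% in choroid plexus, over the whole section to 37.9% (PTX+GCV), 36.4% (PTX+ABT263), 41.8% (PTX) and 39.3% (Control), and in meningeal spots to 57.1% (PTX+ABT263) and 72.7% (Control). Taking the top 5% of spots gave 44.7% in smooth muscle spots, and in meningeal spots 59.8% (PTX+ABT263) and 71.7% (Control), the top 2% gave 72.1% and 82.0%, and the meningeal cluster at resolution 0.3 gave 70.0% and 76.0%. Of the other values for single genes, 1240 kept direction and side of the threshold and 99 lost significance. The other cuts and resolution in comparisons between groups, the meningeal cluster and the spots inside the isocortex clusters were chosen after seeing the data. Of the areas compared between groups, meningeal spots were the shallowest, with 302856 to 757222 UMIs per section.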

Other observations

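The choroid plexus, which makes cerebrospinal fluid behind an epithelium with its own basement membrane, held a further set of collagen genes. It was formed by 225 spots, 19 to 40 a section, and took 0.945% of all UMIs. Since its cluster was found from gene expression and its spots were few, the values are given without a test. Of the UMIs of Col8a2, a short-chain collagen known from corneal endothelium, 59.2% lay there, and 42.7% of those of its partner Col8a1. Col8a1 was at 116, 152 and 183 CPM (lowest, median and highest section) in choroid plexus and 1.47, 2.37 and 3.47 in isocortex. Col8a2 was at 86.3, 134 and 175 in choroid plexus and 0, 0.660 and 0.982 in isocortex. Col9a3 was at 315, 442 and 787 CPM there and 4.03, 5.24 and 8.10 in isocortex. No section overlapped between the areas for these 3 genes.

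Basement membrane chains other than the usual pair were also concentrated in choroid plexus. Of the few UMIs of Col4a3, 46.4% lay there, at 6.84, 12.2 and 17.3 CPM, and it was at 0, 0.0735 and 0.245 in isocortex. Of those of Col4a4, the head-to-head neighbour of Col4a3, 37.0% lay there, at 0, 18.1 and 25.9 CPM, with 2 sections at 0. Col4a3 and Col4a4 join Col4a5 in the network of the kidney's filter. Col18a1 was at 38.8, 70.6 and 87.2 CPM in choroid plexus, above its range in meningeal spots (9.71, 20.4 and 27.1). Choroid plexus markers differed between sections, at 13.1 to 44.6 per 10000 UMIs of the whole section, and their part in the whole-section levels of these genes was not tested.

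In areas of neurons, which were not tested against each other, Col6a1 was at 15.5, 28.9 and 51.2 CPM in striatum and 7.92, 11.6 and 18.4 in isocortex, with overlap. Col11a1 was at 4.02, 5.86 and 15.1 CPM in hippocampus, 2.04, 5.93 and 13.5 in hypothalamus and 3.46, 5.33 and 9.05 in isocortex, which do not separate. Col12a1 was at 2.96, 7.81 and 13.9 CPM in thalamus and 3.02, 5.66 and 8.25 in isocortex, with overlap.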
